A study of Mus musculus with 27 samples.

Results

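The septins are a family of GTP-binding proteins, and 7 of their genes, Sept2 to Sept8, were followed here through knockout of Runx1 or of Zeb1 and Zeb2 in mK4 cells. They were chosen by name: a deposited TPM table of 6 libraries holds 13 septin rows among 32792 genes, with the symbols turned into calendar dates by a spreadsheet. The rows 2-Sep, 3-Sep, 4-Sep, 5-Sep, 6-Sep, 7-Sep and 8-Sep were read as Sept2 to Sept8 and taken for their levels in the control and Runx1KO columns. The Runx1KO values are therefore given as a description, without a test. A further deposited table, with 24953 genes and the plain septin names, added 3 libraries of ZebDKO cells, whose values the rule does not use, although the family was taken up with earlier results of these data known.

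Septins join into rods of several different members, and the rods join end to end into filaments, rings and gauzes beneath the plasma membrane. Each rod takes its subunits from sequence subgroups named after Sept2, Sept6, Sept7 and Sept3, and members of a subgroup can stand in for each other at their place in the rod, except that Sept7 has no close relative in its subgroup. The filaments scaffold the cleavage furrow, bind actin, microtubules and membrane, and form diffusion barriers, among them one at the base of the primary cilium of epithelial cells. Sept3 and Sept5 are best known from neurons, and Sept4 from the annulus of the sperm tail.

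mK4 is an established mouse cell line labelled as kidney metanephric mesenchyme, and the control group is the parental line. The Runx1KO cells are sub-lines in which CRISPR-Cas9 removed exon 3 of Runx1, a transcription factor with a Runt domain. The ZebDKO cells lack the exons of Zeb1 and Zeb2 that carry the start codons. Zeb1 and Zeb2 are repressors of epithelial genes. Each group had 3 RNA-seq libraries from cells grown in 10% serum to near confluence, and the 3 cultures of a genotype are replicates of a line. How many clones they came from is not stated in the sources used here, so clone and genotype cannot be told apart, and p-values measure the spread between these cultures only.

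TPM is a read number scaled to gene length and to a fixed total per library, so the depth behind each value cannot be read from the tables. The libraries reached 1 TPM or more at 12541 to 12697 genes each, and replicates correlated at r = 0.994 to 0.996 across genes on the log2(TPM+1) scale. The control cells held 7 of 12 metanephric mesenchyme markers at 1 TPM or more (Osr1, Pax2, Eya1, Sall1, Hoxa11, Gdnf and Foxd1), with Six2 and Hoxd11 under 0.1 TPM. ZebDKO cells held the same 7, and Runx1KO cells 5 of them, without Osr1 and Gdnf. The summed level of the 6 epithelial markers was 2.2 to 4.2 TPM in control, 2572 to 2654 TPM in Runx1KO and 1146 to 1204 TPM in ZebDKO libraries. Only Krt8 reached 1 TPM in control, and Krt8, Krt18, Cldn4 and Grhl2 did in both knockouts. Epcam did so in ZebDKO alone and stayed under 0.1 TPM in Runx1KO cells, and Cdh1 in no group. This summed level thus differed between the same groups as the septins, and its part in the septin differences was not tested. Of 6 neuron markers only Tubb3 reached 1 TPM in any group, while Snap25, Rbfox3, Map2 and Syt1 stayed under 0.1 TPM. In bulk RNA, fewer cells of a type and less RNA per cell cannot be told apart. Runx1 mRNA stood at 28.5 to 30.3 TPM in Runx1KO against 15.6 to 18.7 TPM in control libraries, and Zeb1 at 14.8 to 16.8 TPM in ZebDKO against 14.2 to 15.6 TPM, so the gene totals, which keep the remaining exons, do not check these labels. Zeb2 was at 1.6 to 1.8 TPM in ZebDKO and 4.9 to 5.5 TPM in control libraries. In the Runx1KO libraries Zeb1 and Zeb2 were both at 0.1 to 0.2 TPM.

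The largest differences within the family were those of Sept4 and Sept3. In the 9-library table Sept4 was at 0.2 TPM in each control library, at 9.2, 7.7 and 8.9 TPM in Runx1KO libraries, and at 4.8, 4.7 and 4.4 TPM in ZebDKO libraries. Sept3 was at 0.1, 0 and 0 TPM in control, at 10, 8.6 and 9.5 TPM in Runx1KO, and at 0, 0 and 0.1 TPM in ZebDKO libraries. Thus Sept4 was high in both knockouts and Sept3 in Runx1KO cells alone of these 3 groups. The other 5 members were expressed in every library, and their group means differed by at most 0.68 on the log2(TPM+1) scale.

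**Figure D1:**
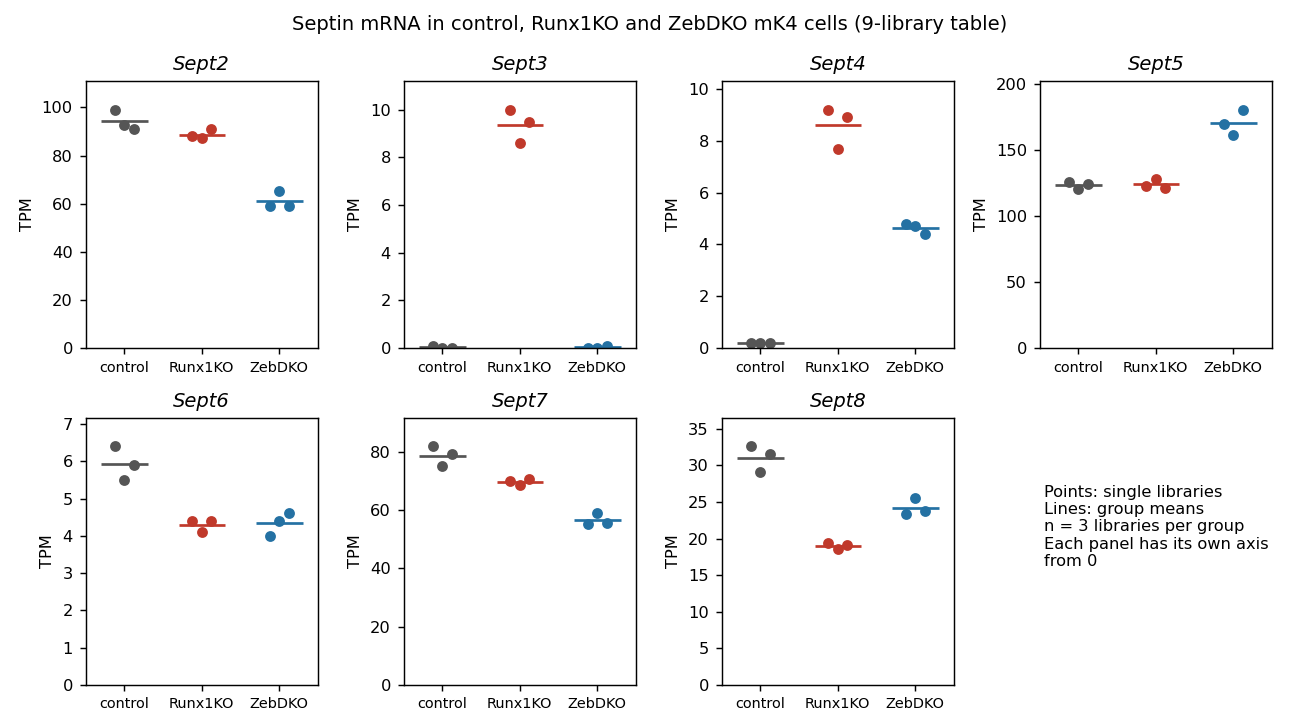
TPM of Sept2 to Sept8 in each library of the 9-library table (vertical axes from 0, one scale per gene; points are libraries, lines are means of 3). Sept3 is near 0 in control and ZebDKO cells and at 8.6 to 10 TPM in Runx1KO cells, Sept4 is above control in both knockouts, and Sept5 is highest in ZebDKO cells.

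Sept4 belongs to the Sept2 subgroup. The gene (ENSMUSG00000020486.11) lies on the plus strand of mm9 chromosome 11, chr11:87382405-87404041, and GENCODE vM1 lists 19 transcripts with 18 different starts. In the 6-library table it was at 0.42, 0.42 and 0.49 TPM in control and 25.79, 22.71 and 26.72 TPM in Runx1KO libraries, a ratio of means of 56.6 and a difference of 4.17 (SE 0.08) on the log2(TPM+1) scale. The same libraries in the 9-library table gave a ratio of 43.0 and a log2 difference of 3.0. All 3 Runx1KO libraries lay far above the control libraries in both tables.

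In ZebDKO cells the mean of Sept4 was 4.63 ± 0.208 TPM (SD, n = 3) against 0.2 TPM in each control library, a ratio of 23.2 and a log2(TPM+1) difference of 2.23 (SE 0.08). All 3 ZebDKO libraries lay above all control libraries, as for 27.7% of genes tested. Sept4 passed the 1 TPM minimum of the comparison only through the ZebDKO libraries and so had to differ there, and its values are given as a description, without a test. Between 14 alternative settings the log2 difference ranged from 2.16 to 3.98, and a minimum of 5 TPM removes the gene. Of the 12974 genes tested, 7.5% were past 2-fold upward and 7.28% downward at an adjusted p under 0.05 (limma, two-sided, Benjamini-Hochberg adjustment over all of them), and the 5 members expressed in every library were not among them.

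Sept3 is a member of the subgroup named after it, together with Sept9 and Sept12. The gene (ENSMUSG00000022456.9) lies on the plus strand of chromosome 15, chr15:82105365-82124872, with 2 annotated transcripts whose starts are at 82105365 and 82105677. In the 6-library table its levels were 0.07, 0 and 0.02 TPM in control and 9.57, 8.74 and 9.62 TPM in Runx1KO libraries, which gives 3.32 (SE 0.08) on the log2(TPM+1) scale. Control values are so close to 0 that the size of this difference is set by the pseudocount, with 6.21 for a pseudocount of 0.1 and 4.21 for 0.5. In the ZebDKO comparison Sept3 did not pass the minimum and was not tested. At 1 decimal of TPM no rise was detectable in ZebDKO cells, where 2 of 3 libraries list it at 0.

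Over all 12376 genes of the 6-library comparison, 7.64% were more than 2-fold higher and 5.07% more than 2-fold lower in Runx1KO cells. Of the 7 members 2 were more than 2-fold higher and 0 lower, and nothing is read from this, as the choice of the members used the same libraries. Both of the members past 2-fold passed the minimum only through the Runx1KO libraries.

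The bases just before the annotated starts of these genes are shown because their mRNA differs most between the groups. They were read from mm9 on the gene's strand, 250 bases up to the base before the start, with matches to the Zeb E-box letters CAGGTG or CAGGTA and to the Runx core TGTGGT, each on either strand, in capitals. Sept4 has a group of starts far inside the gene, from 87391903, where the accessible site of the gene lies, and this is shown beside the outermost start.
Sept3 start, chr15:82105115-82105364, plus strand: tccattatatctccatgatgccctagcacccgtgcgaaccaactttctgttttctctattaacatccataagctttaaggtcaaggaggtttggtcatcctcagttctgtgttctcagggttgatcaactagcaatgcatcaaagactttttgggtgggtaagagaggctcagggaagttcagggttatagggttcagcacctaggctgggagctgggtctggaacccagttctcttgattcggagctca
Sept4 outer start, chr11:87382155-87382404, plus strand: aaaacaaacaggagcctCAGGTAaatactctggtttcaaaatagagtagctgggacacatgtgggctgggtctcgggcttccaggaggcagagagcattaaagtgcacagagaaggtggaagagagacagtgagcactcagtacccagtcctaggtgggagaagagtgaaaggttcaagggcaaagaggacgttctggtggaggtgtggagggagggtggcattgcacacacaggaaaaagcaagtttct
Sept4 inner start, chr11:87391653-87391902, plus strand: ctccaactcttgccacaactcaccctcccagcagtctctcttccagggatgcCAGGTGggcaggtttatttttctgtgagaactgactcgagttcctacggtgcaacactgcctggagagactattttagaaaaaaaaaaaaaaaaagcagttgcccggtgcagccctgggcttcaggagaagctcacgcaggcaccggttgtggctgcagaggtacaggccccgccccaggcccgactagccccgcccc
The Sept3 window holds none of the 3 motifs. The outer Sept4 window holds 1 CAGGTA and the inner one 1 CAGGTG, and neither holds TGTGGT. Among the 250 bases before the start of 10438 tested genes, 15.1% hold CAGGTG, 6.94% hold CAGGTA and 10.4% hold TGTGGT, counting either strand and overlapping matches. In the same windows of the other members, by their outermost starts, Sept6 holds 2 CAGGTG and 1 TGTGGT, Sept5 holds 1 TGTGGT, and those of Sept2, Sept7 and Sept8 hold none of the 3. The outermost starts of Sept6, Sept7 and Sept8 also lie outside the accessible peak that covers inner starts of the gene, and no inner window was read for them. Sept4 was thus read in 2 windows and every other gene in 1, so the members are not compared at like starts. These matches are letters in a window, not shown to be sites.

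The most abundant members behaved differently. Sept2, whose protein gives the subgroup its name and takes part in cytokinesis and in the ciliary barrier, was at 99.1, 92.6 and 91.1 TPM in control, 88, 87.2 and 91.1 TPM in Runx1KO and 59, 65.2 and 59.2 TPM in ZebDKO libraries of the 9-library table. All ZebDKO libraries were lower than every control library, as for 53.3% of genes tested (27.7% lay wholly higher), and the fall was 0.62 on the log2(TPM+1) scale (SE 0.05, limma adjusted p = 2.5e-05). In Runx1KO cells the 6-library difference was -0.08 (SE 0.04), and the groups overlapped, with 206.85 to 226.63 TPM in control and 199.37 to 209.74 TPM in Runx1KO libraries.

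Sept5, of the same subgroup and known at synaptic vesicles, went the other way. It was at 125.4, 120.6 and 124.2 TPM in control and 169.7, 161.3 and 180.4 TPM in ZebDKO libraries, a rise of 0.46 (SE 0.04, limma adjusted p = 4.86e-05). In Runx1KO cells its levels overlapped control. In the 6-library table they were 64.1 to 67.05 TPM in control and 64.52 to 67.55 TPM in Runx1KO libraries, a log2 difference of 0.01. The ZebDKO libraries thus held less Sept2 and more Sept5 than control libraries, while the Runx1KO libraries overlapped control for both.

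Sept7, which occupies its own subgroup and is a part of nearly every septin rod, was at 81.9, 75.1 and 79.2 TPM in control and 55.4, 59.1 and 55.7 TPM in ZebDKO libraries. It fell by 0.47 on the log2 scale (SE 0.05, limma adjusted p = 4.86e-05). In Runx1KO cells the 6-library levels were 225.12, 216.06 and 227.91 TPM against 261.43, 233.29 and 255.06 TPM, a difference of -0.16 (SE 0.05) with the Runx1KO libraries all lower. Of all genes 40.4% lay wholly lower in this way.

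Sept6 and Sept8 share the Sept6 subgroup and were the members lower in Runx1KO cells by most. Sept8 was at 88.53, 76.14 and 83.89 TPM in control and 51.04, 47.84 and 49.78 TPM in Runx1KO libraries of the 6-library table, a difference of -0.73 (SE 0.06). Sept6 was at 18.02, 15.25 and 16.86 TPM in control and 12.37, 11.53 and 12.29 TPM in Runx1KO libraries, a difference of -0.44 (SE 0.07). For both genes every Runx1KO library was below every control library, as for 40.4% of all genes, where 32.5% lay wholly above.

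Both fell in ZebDKO cells as well, and remained past the adjusted p under either rescaling. Sept8 was at 23.3, 25.6 and 23.8 TPM in ZebDKO against 32.6, 29.1 and 31.5 TPM in control libraries, a fall of 0.35 (SE 0.06, limma adjusted p = 0.000916). Sept6 was at 4, 4.4 and 4.6 TPM against 6.4, 5.5 and 5.9 TPM, a fall of 0.38 (SE 0.08, limma adjusted p = 0.0027). At these low values the 1 decimal of the table is itself a coarse step.

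Counted at the adjusted p alone, and leaving Sept4 aside, 1 of the 5 members expressed in every library rose in ZebDKO cells (Sept5) and 4 fell (Sept2, Sept6, Sept7 and Sept8). Of all genes tested, 26.9% rose and 52.5% fell by that criterion, so most genes pass and a fall is common. The median gene lay at -0.18 on the log2 scale. Relative to that median Sept4 stood at 2.41, Sept5 at 0.65, Sept2 at -0.43, Sept7 at -0.28, Sept6 at -0.19 and Sept8 at -0.16. With median-ratio scaling, which puts the median gene at 0.00, the share of passing genes that were higher went from 33.9% to 50.3%, and with quantile normalization to 42.3%. These 5 members kept their directions and stayed past the threshold under both, with the weakest values for Sept6 at -0.20 (adjusted p = 0.0421, limma after quantile normalization) and Sept8 at -0.16 (adjusted p = 0.0285, limma after median-ratio scaling). Both knockouts were compared with the same 3 control cultures.

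**Figure D2:**
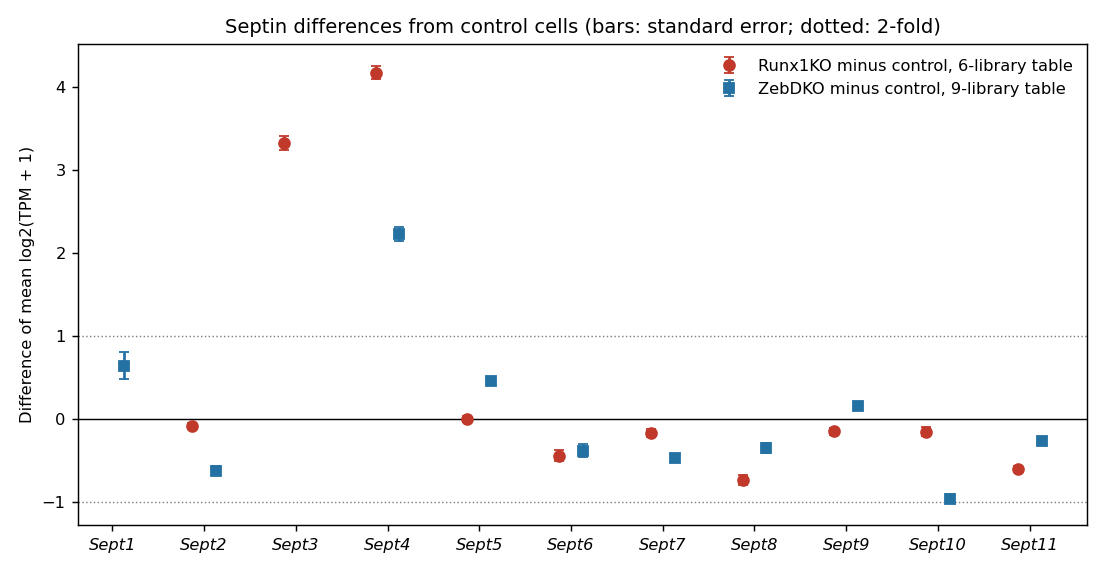
Difference of mean log2(TPM+1) between each knockout and control (vertical axis) for the septins with a fit (horizontal axis), with standard errors from limma as bars and dotted lines at a 2-fold difference. Runx1KO values come from the table without ZebDKO libraries, and ZebDKO values from the table that holds all groups. Sizes are therefore not compared between the knockouts here. Sept4 is above the upper line in both knockouts, at 4.17 in Runx1KO and 2.23 in ZebDKO cells. In the table that holds all groups its Runx1KO difference is 3.0. Sept3 has a Runx1KO value alone, at 3.32, and Sept5 is above 0 in ZebDKO cells while Sept2 is below it.

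The remaining septins were examined as a group. Sept12 and Sept14 were at or near 0 in every library and were not tested. Sept10, of the Sept6 subgroup, had the largest fall among the others in ZebDKO cells, from a mean of 54.0 to 27.4 TPM, a log2 difference of -0.96 (SE 0.05, limma adjusted p = 2.86e-06). Sept1 went from 1.63 ± 0.513 TPM to 3.10 ± 0.557 TPM (SD, n = 3), a rise of 0.65 (SE 0.16, limma adjusted p = 0.007). Sept9 rose by 0.16 (SE 0.04, limma adjusted p = 0.00931), or by 0.35 with median-ratio and 0.33 with quantile scaling. Sept11 had a difference of -0.25 (SE 0.04, limma adjusted p = 0.000833), which after median-ratio scaling was -0.06 (limma adjusted p = 0.176) and no longer passed. In Runx1KO cells Sept11 stood at 108.9 ± 2.66 TPM against 165.1 ± 4.04 TPM in control libraries of the 6-library table (SD, n = 3), while Sept9 and Sept10 were within 10% of control. In that table Sept10 (-9.98%) and Sept9 (-9.49%) had all Runx1KO libraries below all control libraries, as did 40.4% of all genes. For the same libraries in the 9-library table the changes were -12.3% for Sept10 and -8.42% for Sept9.

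Summed by subgroup, the Sept2 and Sept3 subgroups took a larger share of septin mRNA in both knockouts than in control cells. In the 9-library table Sept1, Sept2, Sept4 and Sept5 together made up 45.7 to 47.0% of the TPM of all 13 septins in control, 50.7 to 51.7% in Runx1KO and 54.5 to 56.5% in ZebDKO libraries. The Sept6 subgroup made up 29.4 to 30.4% in control, 23.6 to 24.3% in Runx1KO and 22.2 to 23.5% in ZebDKO libraries. Sept7 was at 16.3 to 17.0%, 15.9 to 16.2% and 12.7 to 13.7%, and the Sept3 subgroup at 6.61 to 7.18%, 8.81 to 9.16% and 8.35 to 8.66%. In this table the libraries of each knockout did not overlap those of control in any of these 4 shares. In the 6-library table the Sept7 share did overlap, at 26.4 to 27.8% in control and 27.4 to 27.8% in Runx1KO libraries. Within the Sept2 subgroup Sept5 and Sept4 were higher and Sept2 lower in ZebDKO libraries. The summed TPM of Sept2 to Sept8 was 323.1 to 345.7 in control, 322.9 to 324.6 in Runx1KO and 316.2 to 328.2 in ZebDKO libraries, so the 3 groups overlapped in this sum. In the 6-library table the same sum did not overlap, at 603.4 to 662.1 in control and 573.8 to 600.6 in Runx1KO libraries. Over all 13 septins the sum in the 9-library table was 459.5 to 480.9 in control, 432.5 to 436.9 in Runx1KO and 421.7 to 437.2 in ZebDKO libraries, lower in both knockouts. The median gene of this table lay at -0.18 in ZebDKO and -0.06 in Runx1KO cells on the log2(TPM+1) scale. The sums were not rescaled, so a fall of the septins beyond that of the typical gene is not read from them. These shares and sums are descriptions, with no test.

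**Figure D3:**
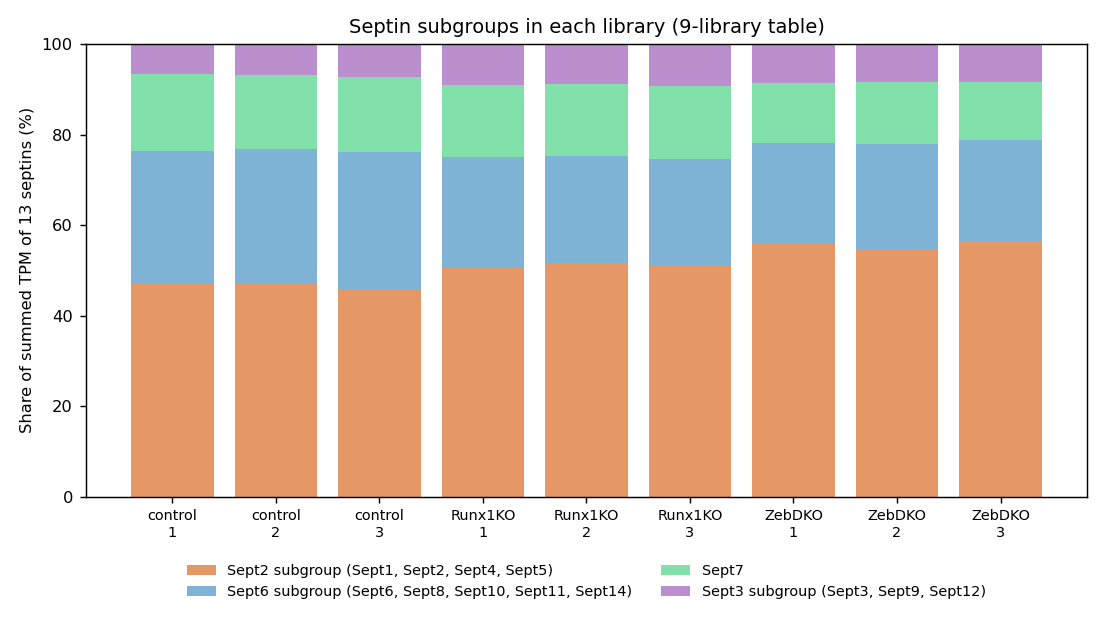
Share of the summed TPM of 13 septins (vertical axis, %) taken by each subgroup in the 9 libraries (horizontal axis). The Sept2 subgroup takes 45.7 to 47.0% in control, 50.7 to 51.7% in Runx1KO and 54.5 to 56.5% in ZebDKO libraries, and the Sept6 subgroup is smaller in both knockouts than in control.

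The order of the members by level depended on the table. In control cells the 6-library table ranked Sept7 (249.9 ± 14.8 TPM, SD, n = 3) over Sept2, Sept8, Sept5, Sept6, Sept4 and Sept3, with no overlap between neighbours. The 9-library table ranked Sept5 (123.4 ± 2.5 TPM) over Sept2, Sept7, Sept8, Sept6, Sept4 and Sept3, again with no overlap. The tables hold the same 6 control and Runx1KO libraries, since each column followed its namesake's deviations from the group mean (r of at least 0.772 across 8811 genes) and no other's (r of at most -0.329). For Sept2 the 9-library value was 0.431 to 0.44 of the 6-library value in each library, for Sept7 0.311 to 0.322, for Sept5 1.86 to 1.9 and for Sept3 0.984 to 1.04. Across 9940 genes the median ratio was 1.21, with a 5th to 95th percentile range of 0.307 to 2.11. The factor was nearly constant over the libraries of a gene but not over genes, so ratios between groups carried over (for Sept8 a Runx1KO to control ratio of 0.598 in the 6-library and 0.612 in the 9-library table), apart from the near-zero control values of Sept4, while ranks between septins and the subgroup shares did not. In the 6-library table the share of the Sept2 subgroup was 29.6 to 31.6% for control libraries and 36.5 to 36.9% for Runx1KO libraries, the same direction at another level.

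**Figure D4:**
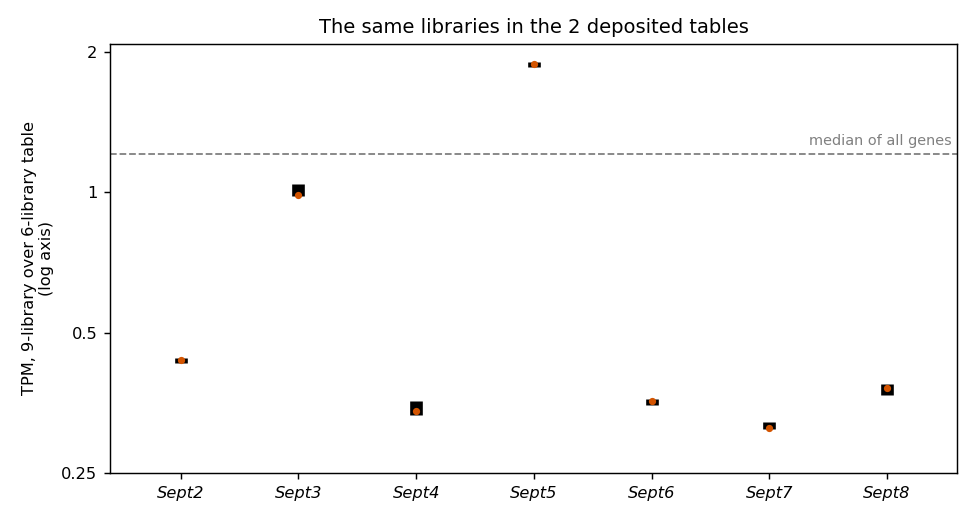
TPM in the 9-library table divided by TPM in the 6-library table for the same libraries (vertical axis, log scale) for Sept2 to Sept8. Dots are medians over the 6 libraries, or over the 3 Runx1KO libraries for Sept3 and Sept4 where control values were under 1 TPM, black bars span the lowest to highest library, and the dashed line is the median of all genes, 1.21, with Sept5 above it and the other 6 members below.

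Within Runx1KO cells the 9-library table placed Sept3 (9.37 TPM) next to Sept4 (8.60 TPM), and these neighbours overlapped. In ZebDKO cells Sept2 (61.1 TPM) overlapped Sept7 (56.7 TPM), and Sept4 (4.63 TPM) overlapped Sept6 (4.33 TPM).

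The genes outside the family with the pattern most like Sept4 over the 9 libraries, out of 13363 candidates, were Pard6b, Proser2 and Kank1. Likeness was the root mean square difference in log2(TPM+1) after subtracting each gene's mean, 0.08 for Pard6b, 0.09 for Proser2 and 0.11 for Kank1. Pard6b, a cell polarity protein of the Par complex, went from 24.4 ± 1.19 TPM in control to 191.4 ± 7.30 TPM in Runx1KO and 124.4 ± 2.82 TPM in ZebDKO libraries (SD, n = 3). Kank1 went from 0.467 TPM to 9.97 and 6.40 TPM. For Sept3 the nearest were Rhox2g (0.12), Slc52a3 (0.15), a riboflavin transporter, and Luzp4 (0.17). Slc52a3 was at 1.57 ± 0.153 TPM in control, 21.4 ± 0.473 TPM in Runx1KO and 1.6 ± 0.173 TPM in ZebDKO libraries. Rhox2g was listed at 0 in control and ZebDKO means and at 8.23 ± 1.20 TPM in Runx1KO libraries. The 9 libraries fall in 3 groups, so a likeness of this kind rests on 3 group means. It also depends on the pseudocount of 1, which shrinks differences from the near-zero control values of Sept3 and Sept4. Ratios of TPM are not matched: Sept4 had 43.0 in Runx1KO and 23.2 in ZebDKO cells from 0.2 TPM, while Pard6b started from 24.4 TPM.

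Genes whose products work with septins were counted in ZebDKO cells from lists chosen by function. Each count is read beside the shares of all genes tested, of which 26.9% rose and 52.5% fell by adjusted p. After median-ratio scaling 4949 of 12925 genes rose and 4885 fell, and after quantile normalization 4216 of 12974 rose and 5758 fell. The exocyst, the complex that tethers vesicles to the plasma membrane and that septins bind, fell in 8 of 8 genes by adjusted p, with a median log2 difference of -0.46 against -0.18 for all genes. The extremes were Exoc4 at -0.79 (SE 0.04) and Exoc6 at -0.23 (SE 0.05), and none passed 2-fold. After median-ratio or quantile scaling 6 of 8 remained lower.

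Of 9 genes for syntaxins and their Snap and Vamp partners 8 were tested, Snap25 being under the minimum, and 3 rose and 5 fell by adjusted p, where 26.9% and 52.5% of all genes did. Stx3, the apical syntaxin of epithelial cells, rose past 2-fold from 2.63 ± 0.153 to 22.1 ± 0.503 TPM (log2 difference 2.67, SE 0.06, limma adjusted p = 4.46e-08). Vamp2, a vesicle partner of syntaxins, fell past 2-fold from 118.6 ± 4.4 to 56.5 ± 7.85 TPM (log2 difference -1.06, SE 0.10, limma adjusted p = 3.27e-05). This is close to the 2-fold limit, and the median gene lay at -0.18. Whether Vamp2 stays past 2-fold after rescaling was not tested. The split by adjusted p stayed at 3 and 5 after median-ratio and after quantile scaling.

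The Borg proteins are effectors of the GTPase Cdc42 that bind septins. In the list of Cdc42 and 5 Borg genes 2 rose and 3 fell by adjusted p (26.9% and 52.5% of all genes), none past 2-fold, and the split moved to 3 and 1 with median-ratio scaling and 3 and 2 with quantile normalization. In Runx1KO cells Cdc42ep3, a Borg gene named after its values were seen, stood at 18.4 ± 2.25 TPM against 71.8 ± 4.15 TPM in control and 77.9 ± 3.20 TPM in ZebDKO libraries of the 9-library table (SD, n = 3). Of 12 genes of the cytokinetic ring and midbody, which septins scaffold, 3 rose and 6 fell (26.9% and 52.5% of all genes), none past 2-fold before rescaling. Median-ratio scaling turned this split to 5 and 3. The extremes before rescaling were Myh9 at 0.94 (SE 0.05) and Anln at -0.55 (SE 0.04). Whether Myh9 passes 2-fold after rescaling was not tested. Of 7 apoptosis regulators, listed because a short Sept4 protein is known to bind Xiap, 1 rose and 6 fell (26.9% and 52.5% of all genes). None was past 2-fold before rescaling. The split was 1 and 4 after median-ratio scaling and 1 and 5 after quantile normalization.

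Chromatin accessibility was examined in the deposited ATAC-seq peak lists of control and Runx1KO cells, which give no value per replicate and so allow no test. They divide peaks into Runx1KO-induced (9427 peaks, more open in the knockout), Runx1-dependent (8741, more closed) and Runx1-independent (37481). A peak was assigned to a gene when it overlapped the gene body extended by 10 kb. None of the 7 members had an induced peak, against 29.4% of 10438 genes tested, and none had a dependent peak, against 23.0%. All 7 had an independent peak, as did 95.5% of genes. Sept3 and Sept4 were therefore without an induced peak in this window, whereas 70.5% of the 800 genes more than 2-fold higher in Runx1KO cells had one. With the window at 50 kb, Sept4, Sept5, Sept6 and Sept8 had an induced peak and Sept7 a dependent one, where 58.7% of genes had an induced and 44.6% a dependent peak.

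For Sept4 the nearest induced peak, chr11:87355780-87356159, lay 26.2 kb before the outer start, with a deposited log2 change of 1.53. For Sept3 the nearest, chr15:82051530-82051853, lay 53.5 kb before the start, at 1.14. For Sept5 and Sept8 induced peaks lay 17.0 and 16.6 kb away, and their mRNA in Runx1KO cells overlapped control (Sept5) or lay below it (Sept8).

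The members had 18 independent peaks within 10 kb, with deposited log2 changes from -0.84 to 0.84. At the upper end was the Sept4 peak over the inner starts, chr11:87391016-87392795, at 0.84, in an independent list whose log2 changes run from -0.99 to 0.99, with a deposited, unlabelled -log10 value of 4.43. At the lower end was a Sept6 peak in an intron, chrX:34479851-34480315, at -0.84. The peaks of Sept3 had log2 changes of 0.60 for chr15:82101508-82101992, which is 3.37 kb before the gene, and 0.62 for chr15:82123362-82124330, which overlaps a Sept3 exon near the end of the gene. Their deposited -log10 values were 0.854 and 1.19. Neither annotated start of Sept3 lay within 1 kb of an ATAC-seq peak of any class. The single Sept8 peak, at its start, was at -0.34. The peaks of Sept2 were at -0.02 over the start, where an exon of Hdlbp is also overlapped, and -0.21 beyond the end, over an exon of Farp2.

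**Figure D5:**
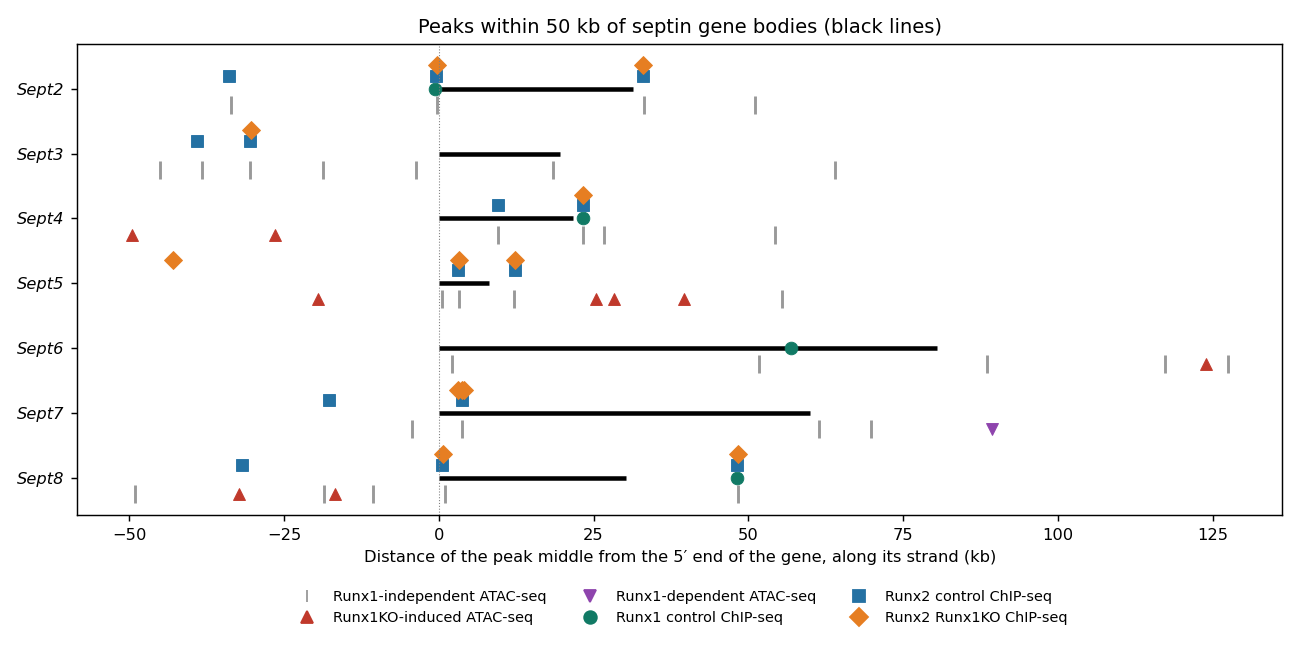
Middle of each deposited peak within 50 kb of a member's gene body, as distance from the gene's 5′ end along its strand (horizontal axis, kb), with black lines for gene bodies and symbols for the 6 peak lists. Induced ATAC-seq peaks (red triangles) flank Sept4, Sept5, Sept6 and Sept8 outside 10 kb, and Runx1 peaks (green circles) lie at the Sept2 start, past the end of Sept4, inside Sept6 and past the end of Sept8.

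Binding of Runx1 was read from ChIP-seq peaks called on the combined replicates of control cells, after removal by the authors of peaks seen with the same antibody in Runx1KO cells. A Runx1 peak lay within 10 kb of 3 of the 7 members, Sept2, Sept4 and Sept6, against 39.9% of genes tested. The Sept2 peak, chr1:95374789-95375060, lay 481 bases before the gene, outside any annotated exon, with a 6.0-fold enrichment over local background. The ATAC-seq and Runx2 peaks over this site overlap exons of both Sept2 and the neighbouring gene Hdlbp, so the binding cannot be assigned to either gene. The Sept4 peak, chr11:87405542-87405832 with 4.5-fold enrichment, lay 1.5 kb past the end of Sept4 and overlapped an exon of the neighbouring gene Mtmr4. The Sept6 peak, chrX:34474784-34475015 with 4.67-fold enrichment, lay in an intron. The median over all 10187 Runx1 peaks was 4.45-fold.

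The Sept2 and Sept4 peaks each overlapped an ATAC-seq peak, of the independent class, and a Runx2 peak of control cells. The Sept6 peak overlapped neither, while 51.2% of all Runx1 peaks overlapped an ATAC-seq peak and 61.9% a Runx2 peak. The sequences of the Sept2 and Sept6 peaks are given because they differ in this way, on the strand of the gene, with TGTGGT or its reverse complement ACCACA in capitals.
Sept2 Runx1 peak, chr1:95374789-95375060, plus strand: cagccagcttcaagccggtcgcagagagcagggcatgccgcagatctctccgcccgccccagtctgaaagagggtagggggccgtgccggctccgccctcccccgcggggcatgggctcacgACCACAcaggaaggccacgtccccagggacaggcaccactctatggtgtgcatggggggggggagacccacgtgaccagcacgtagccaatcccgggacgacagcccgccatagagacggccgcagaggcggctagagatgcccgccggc
Sept6 Runx1 peak, chrX:34474784-34475015, minus strand: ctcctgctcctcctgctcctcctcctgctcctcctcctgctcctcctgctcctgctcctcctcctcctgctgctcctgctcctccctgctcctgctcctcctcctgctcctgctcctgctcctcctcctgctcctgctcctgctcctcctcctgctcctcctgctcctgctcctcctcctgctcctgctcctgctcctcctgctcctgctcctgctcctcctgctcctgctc
The Sept2 peak holds 1 match, as ACCACA. The Sept6 peak holds none and is a run of short repeats of ctcctg and ctcctcctg, with 66.8% G and C. Among windows of 272 bases at the middle of 9977 Runx1 peaks on assembled chromosomes 37.1% hold the motif, and 35.3% of windows of 232 bases do. Neither peak holds CAGGTG or CAGGTA.

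Runx2, the paralogue left in Runx1KO cells, had peaks within 10 kb of 5 of the 7 members in control cells (Sept2, Sept4, Sept5, Sept7 and Sept8), against 70.6% of genes. In Runx1KO cells the same 5 members had one, against 72.2% of genes. Of 8 Runx2 peaks near members in control cells 7 overlapped a Runx2 peak in Runx1KO cells, or 87.5%, and over all 17595 Runx2 peaks of control cells the share was 62.0%. The 8th was the peak at the inner starts of Sept4, chr11:87391887-87392068, with 4.64-fold enrichment in control cells and no called peak in Runx1KO cells. Sept3 and Sept6 had no Runx2 peak in either cell type within 10 kb. The strongest member peak was the one past the end of Sept4, at 7.93-fold in control and 6.77-fold in Runx1KO cells, and at Sept2 the enrichment was 6.88 and 6.65-fold. These values come from separate calls without replicate error, so a difference between them was not tested.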

How the data were processed

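RNA-seq of control, Runx1KO and ZebDKO cells (3 libraries each) was analysed from 2 TPM tables. Following adapter trimming, STAR alignment to mm9 and duplicate removal, the authors counted reads per gene and deposited TPM. The gene lengths they used, and strand, are not given in the sources used here. For ATAC-seq the authors deposited a log2 change for each MACS2 peak beside an unlabelled −log10 p-value. For ChIP-seq the authors deposited MACS2 fold enrichment, a score and −log10 q, from combined replicates.

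The limma 3.58.1 package (R 4.3.3) compared log2(TPM+1) with a variance trend, for genes that reached 1 TPM in 3 or more of the 6 libraries compared. Benjamini-Hochberg adjustment ran over all genes tested. A 2-fold call needed an absolute log2 difference over 1 and an adjusted p under 0.05. The fit was tried on simulated data. For ZebDKO it called 100 of 100 genes simulated at a log2 change of 1.5, 100 of 100 at 2 and 2 of 12351 unchanged genes. The members expressed in every library differed by less, from -0.35 for Sept8 to -0.62 for Sept2 in size. No change of that size was simulated, so the simulation does not check the adjusted p-values of these members. Depth cannot be read from TPM, so no counting interval is given. Named genes were all members, the other septins, partner genes past 2-fold, and the 3 nearest patterns of members whose group means differed by over 1. The extremes of the exocyst and cytokinetic lists and Cdc42ep3 were named after their values were seen. Members and lists were chosen with earlier results of these data known. Positions are those of GENCODE vM1 on mm9, 1-based; 10438 of 12376 tested genes (84.3%) had 1 position. Sequences were read from the mm9 genome with Python 3.11.15. The alternatives were other pseudocounts, filters, scalings, fold limits, windows and peak thresholds, the replicate block, 1 fit over 9 libraries, no trend, and each library left out.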

Additional observations from a re-analysis of the deposited data

How the results depend on the processing

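The 1 member past 2-fold higher in ZebDKO cells was Sept4, which had to differ by passing the minimum through ZebDKO libraries alone. Its count is therefore a description, and its constancy over settings adds no support. The counts stayed at 1 higher and 0 lower under the pseudocounts, scalings, absence of a filter, trend or 9-library fit. They did so too with any 1 library left out. A minimum of 5 TPM gave 0 higher, because Sept4 is then not tested. A limit of 1.3-fold gave 2 higher and 2 lower, with 2244 higher and 4502 lower over all genes, where 973 and 944 passed 2-fold. With any 1 library left out, 970 to 991 genes were higher and 936 to 1001 lower. In Runx1KO cells 2 members (Sept3 and Sept4) were past 2-fold higher and 0 lower in each setting, except that 2 were lower at 1.3-fold. Sept3 and Sept4 passed the minimum only through the Runx1KO libraries, and the choice of the members used these libraries. Nothing is therefore read from these counts. Over all genes 7.64% were more than 2-fold higher and 5.07% more than 2-fold lower.

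The 5 members expressed in every library kept their direction and their side of the threshold in ZebDKO cells under each alternative that could be fitted, and Sept4, which had to differ by passing the minimum through ZebDKO libraries alone, kept its direction. Replicate numbers did not pair the libraries: same-numbered control and ZebDKO libraries correlated at -0.0355 to 0.0385 in their deviations. With the replicate number as a block 978 genes were higher and 945 lower, with 1 member higher (Sept4) and 0 lower. In Runx1KO cells this block gave 2 members higher (Sept3 and Sept4) and 0 lower. These member counts are descriptions, for the reasons given above.

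For peaks, 50 kb windows gave 4 members with an induced and 1 with a dependent ATAC-seq peak in place of 0, where 58.7% and 44.6% of genes had one. A window of 1 kb around annotated starts left 1 of 7 members with a Runx1 peak, against 21.1% of genes. In that window 3 of 7 had a Runx2 peak in Runx1KO cells, against 54.1% of genes. The independent ATAC-seq peaks have no stricter threshold to apply. Values under about 1 TPM are limited by the table's decimals.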
